A study of Mus musculus with 8 samples.

Results

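Esrrb, Tfcp2l1, Tbx3, Klf2, Klf5, Nr5a2 and Prdm14 encode transcription factors of naive pluripotency, the state of the inner cell mass and of mouse embryonic stem cells (ESCs). These 7 genes were chosen by name out of 21938 protein-coding genes, and the locus of a gene was taken as its body and the 50 kb to each side. Open chromatin was mapped by ATAC-seq, which lets a transposase cut accessible DNA and tag it for sequencing, so that open stretches gather reads and form peaks. There were 8 libraries in 4 groups of 2, and the authors deposited 1 peak list per group, so values at a locus carry no spread between replicates and no test was possible. The first group was untreated mouse embryonic fibroblasts (MEFs) of the C57BL/6J-OG2 strain, which carries a GFP reporter under Pou5f1 (Oct4) regulatory sequence. The next groups were MEFs of the same strain at day 5 and day 10 after the first infection with retroviruses for OCT4, SOX2, KLF4 and c-MYC (OSKM), which also overexpressed FLAG (the study's control for JMJD3) and grew in ESC medium to which vitamin C had been added. The last group was untreated ESCs, labelled C57Bl6J for replicate 1 and C57BL/6J-OG2 for replicate 2. All groups were labelled wild type for the Jmjd3 knockout used elsewhere in the study. The infected cultures are mixtures of cells at different stages, so a site open in few cells and a site weakly open in many cannot be told apart. The labels place ESCs on feeders, whereas the methods describe gelatin and 2i/L medium, so the culture medium and the cell type cannot be told apart in comparisons with ESCs.

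Naive factors hold ESCs in self-renewal by binding, often side by side, at enhancers of one another's genes and of Pou5f1, Sox2 and Nanog. Several of these genes are silent in fibroblasts and are switched on late in reprogramming. ESRRB, an orphan nuclear receptor, and TFCP2L1, a grainyhead-family factor, are downstream of GSK3 inhibition and of LIF. KLF2 and KLF5 are zinc-finger factors of the family of KLF4, TBX3 is a T-box factor, NR5A2 is a nuclear receptor that reads nearly the same DNA word as ESRRB, and PRDM14 is a PR-domain protein that keeps ESCs from the primed state.

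The lists followed the labels at marker genes. The 11 fibroblast genes such as Prrx1, Postn and Fbn1 held 84, 40, 40 and 27 peaks, given here and from now on in the order MEFs, day 5, day 10 and ESCs, with fewer in ESCs than in MEFs at 10 of 11. Genes of pluripotent cells (Nanog, Zfp42, Dppa3, Dppa5a, Fbxo15, Sall4 and Tdgf1) held 19, 17, 23 and 49, counting once peaks shared by neighbouring loci, with more in ESCs than in MEFs at 7 of 7. Of all protein-coding genes, 35.6% had more peaks in ESCs than in MEFs. The lists held 56514, 36219, 35226 and 48486 peaks, and their depth in reads is unknown.

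Sequences are shown for the loci at which an ESC-only region held a word of a reprogramming factor or of a member near its middle. Each is the central 200 bp of the widest ESC peak of such a region, on the plus strand of GRCm38 (RefSeq assembly), outside all annotated exons. Capitals mark matches on either strand to ATGCAAAT (octamer, the word of OCT4), CCATTGT or CCTTTGT (SOX), TCAAGGTCA (ESRRB and NR5A2) or AGGTGTGA (T-box).
Esrrb, chr12:86556643-86556842, T-box: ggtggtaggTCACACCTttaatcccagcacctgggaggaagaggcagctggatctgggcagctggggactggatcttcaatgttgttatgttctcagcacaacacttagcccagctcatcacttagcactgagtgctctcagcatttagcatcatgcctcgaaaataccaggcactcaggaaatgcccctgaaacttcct
Tfcp2l1, chr1:118663218-118663417, SOX and ESRRB/NR5A2: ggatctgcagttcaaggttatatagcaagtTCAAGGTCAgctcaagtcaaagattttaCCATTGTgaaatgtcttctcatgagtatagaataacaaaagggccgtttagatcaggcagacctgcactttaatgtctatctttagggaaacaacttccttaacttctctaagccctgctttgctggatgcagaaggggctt
Prdm14, chr1:13084948-13085147, SOX: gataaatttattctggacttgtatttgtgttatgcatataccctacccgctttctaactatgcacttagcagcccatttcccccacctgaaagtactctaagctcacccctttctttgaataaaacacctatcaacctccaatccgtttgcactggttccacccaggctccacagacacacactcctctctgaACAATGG
Klf2, chr8:72349091-72349290, ESRRB/NR5A2: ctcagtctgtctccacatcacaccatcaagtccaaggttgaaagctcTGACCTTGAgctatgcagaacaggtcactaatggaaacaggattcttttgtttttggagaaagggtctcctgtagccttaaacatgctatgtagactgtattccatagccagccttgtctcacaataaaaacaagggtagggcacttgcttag
Klf5, chr14:99340174-99340373, octamer: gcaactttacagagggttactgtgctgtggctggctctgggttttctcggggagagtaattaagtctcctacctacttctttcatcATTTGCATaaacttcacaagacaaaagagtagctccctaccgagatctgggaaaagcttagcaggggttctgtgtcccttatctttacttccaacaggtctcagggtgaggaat
All 5 regions had a peak in ESCs and in no other list. At Nr5a2 a SOX word lay in an ESC-only region that overlaps an exon and is not shown, and at Tbx3 no such word was found. The T-box match at Esrrb and the ESRRB/NR5A2 match at Tfcp2l1 lay in bases that the assembly masks as repeats. Other ESC-only regions of Esrrb outside exons held a SOX, an ESRRB/NR5A2 or an octamer word in unmasked bases and are not shown.

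The first comparison asked how many open sites each locus held in each cell population. All 7 loci held more peaks in ESCs than in MEFs, and all 7 held more in ESCs than in any other list, against 35.6% and 30.4% of all protein-coding genes. In total the loci, which span 1082.3 kb and do not overlap each other, held 21, 11, 17 and 64 peaks. That was 1.94, 1.02, 1.57 and 5.91 peaks per 100 kb. The median member had 1.76 peaks per 100 kb in MEFs and 6.14 in ESCs, beside medians of 3.46 and 3.12 over all protein-coding genes. Klf2 lay above the all-gene median in MEFs, with 5.85 peaks per 100 kb, and Tbx3 had 2.63 in MEFs and 3.51 in ESCs. At day 5 and day 10 the median member had 0.879 and 0.877 peaks per 100 kb, beside 2.10 and 2.34 over all genes.

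**Figure D1:**
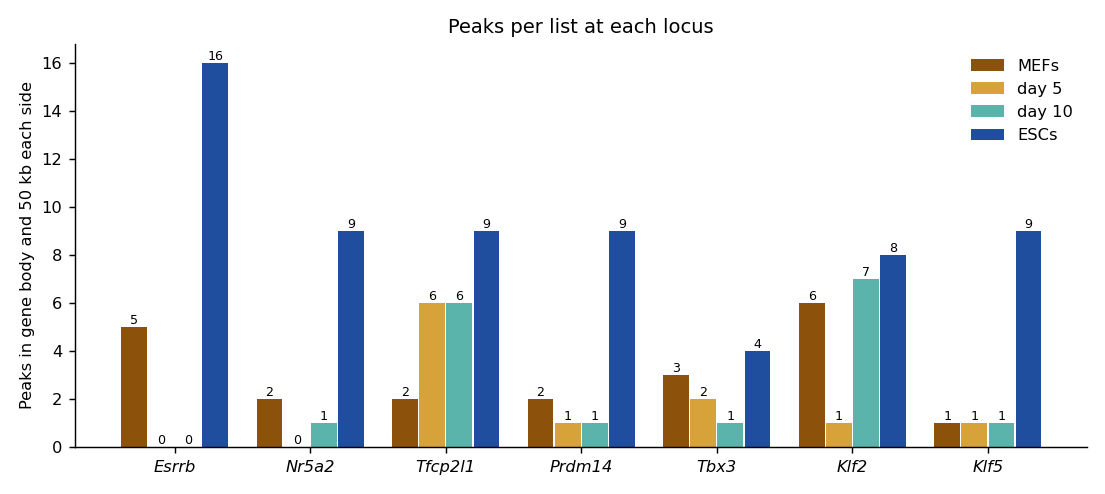
Number of peaks (vertical axis) in the body and 50 kb to each side of each of 7 genes, 1 bar per deposited list. ESC bars are the highest at every gene, and Tfcp2l1 and Klf2 alone reach 6 or 7 peaks on a day of reprogramming.

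The members differed in what they held before ESCs. Esrrb had 5, 0, 0 and 16 peaks, so that peaks listed in MEFs were in neither of the intermediate lists. The MEF list was the longest, and when every list was shortened to the same number of highest-scoring peaks Esrrb kept 1 of its MEF peaks. Nr5a2 went through 2, 0, 1 and 9 peaks, and Prdm14 through 2, 1, 1 and 9. In the shortened lists Nr5a2 held 0, 0, 1 and 3, and Prdm14 held 2, 0, 1 and 5. Klf5 held 1 peak in each of the first 3 lists and 9 in ESCs. At these 4 genes nearly all ESC sites were missing from the lists of both days. Tfcp2l1 had 2, 6, 6 and 9 peaks with more at day 5 than in MEFs. In lists as deposited no other member did so, while in lists of equal length Tbx3 did too, with 1 peak in MEFs and 2 at day 5. Klf2 had 6, 1, 7 and 8, so its count was lowest at day 5. Tbx3 had 3, 2, 1 and 4, the smallest step from MEFs to ESCs among the members.

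The excess in ESCs was smallest at Tbx3 and Klf2 and depended there on the setting. With 20 kb on each side Tbx3 held 2, 2, 1 and 2 peaks, and with 100 kb Klf2 held 11, 6, 12 and 12. When every list was shortened to its 35226 highest-scoring peaks, Klf2 held 3, 1, 7 and 5, with day 10 above ESCs. With a −log10 q-value of at least 2 it held 5, 1, 6 and 5. The other 5 members had most peaks in ESCs under each of these settings.

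**Figure D2:**
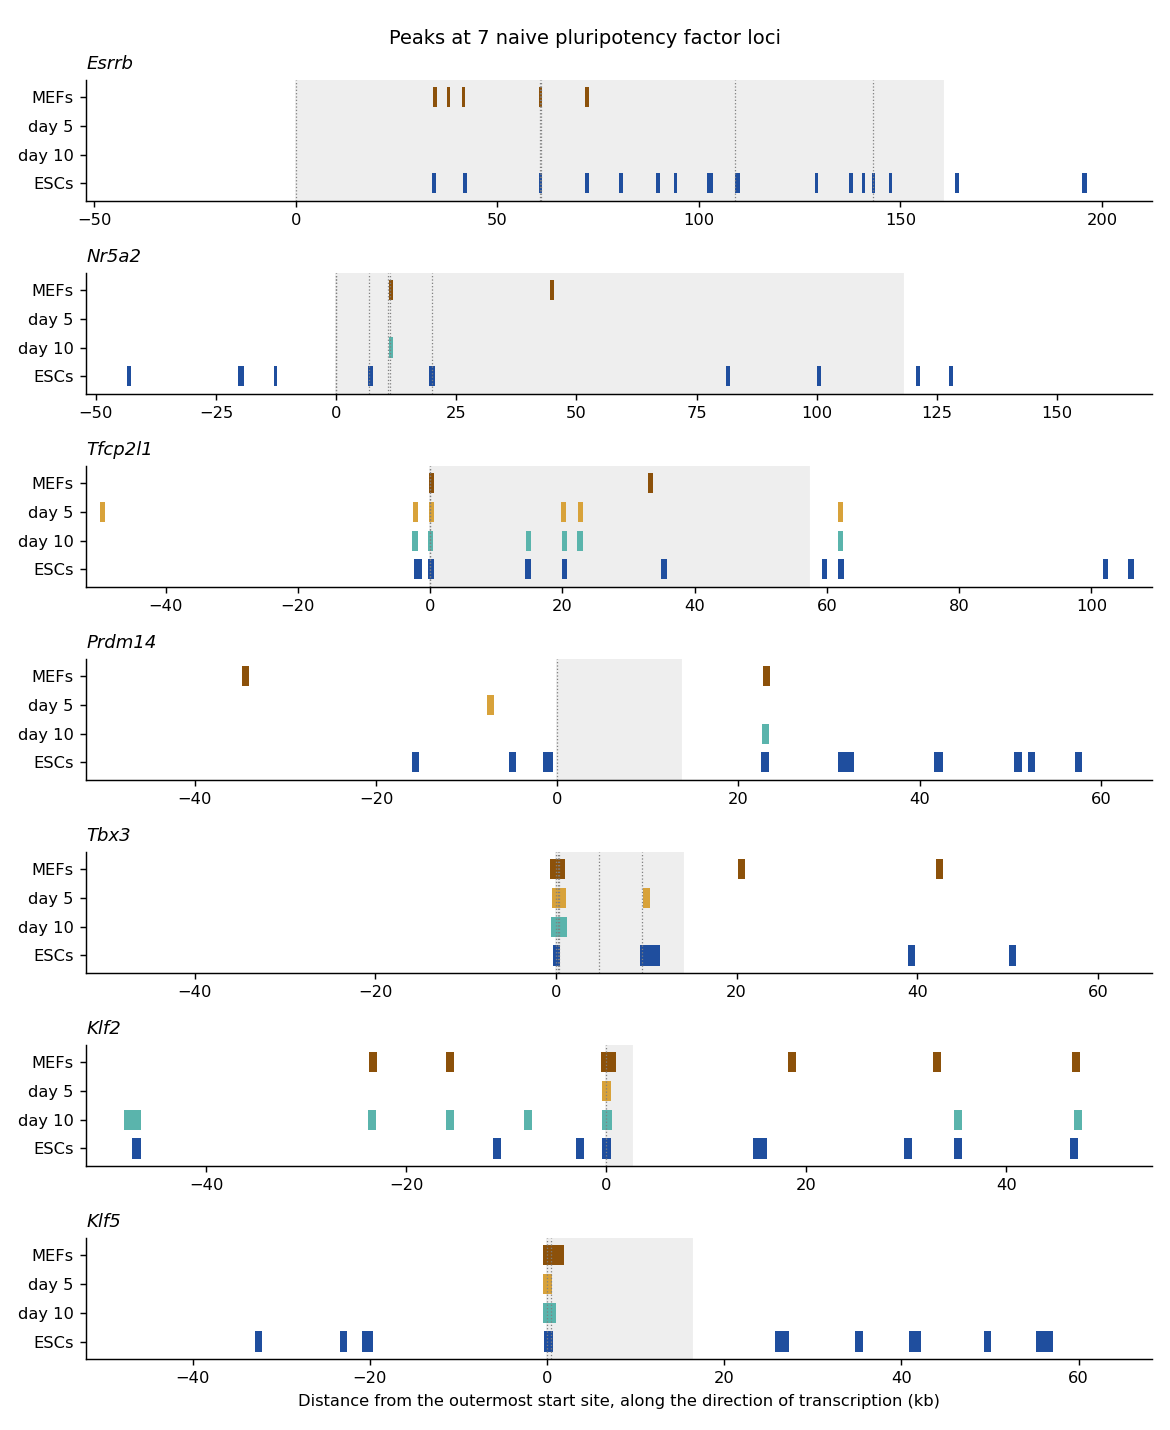
Position of each peak along the 7 loci, as distance in kb from the outermost annotated start site in the direction of transcription, with 1 row per list. Grey marks the gene body, dotted lines mark annotated start sites, and peaks narrower than 0.8 kb are drawn 0.8 kb wide. Peaks in ESCs lie mostly away from start sites, and at Esrrb both rows of reprogramming days are empty.

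A second comparison concerned the start sites, where transcription begins. A peak lay over at least 1 annotated start site of 6, 4, 4 and 6 of the 7 members. By the same rule the share over all protein-coding genes was 60.0%, 52.1%, 56.0% and 55.8%. With the outermost start site of each gene alone the members' count was 4 in every list, and with peaks within 1 kb of a start site it was 6, 4, 5 and 7. Shares over all genes were not computed for either of these other rules. Tfcp2l1, Tbx3, Klf2 and Klf5, 4 of 7, had a start-site peak in all 4 lists, beside 46.8% of all genes. These promoters were therefore listed as open in fibroblasts as well. At Klf5 the start-site peak had scores of 113, 137, 125 and 109, where the score is 10 times the −log10 q-value and is comparable only within a list. At Klf2 the scores were 145, 95, 117 and 81, and at Tbx3 174, 112, 85 and 88. The start-site region of Tbx3 also covers the start of Tbx3os1, which is transcribed from the other strand. Tfcp2l1 had 70, 36, 57 and 62. These start-site peaks ranked within the top 63.0% of their lists, and those of Klf5 within the top 17.2%.

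Esrrb, Nr5a2 and Prdm14 had no start-site peak on either day. Esrrb has 5 annotated start sites. The outermost, at chr12:86361117, had no peak in any list, the nearest ESC peak being 33895 bp away. Those at 86421644 and 86421883 lay in a peak of MEFs (score 41) and of ESCs (score 33). Further inside the gene, 86470117 and 86504409 lay in peaks of ESCs only, with scores of 48 and 47. The former starts a transcript annotated as protein-coding and the latter one annotated as a processed transcript. The gene thus had a start region listed in both cell types and internal start sites listed in ESCs alone.

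Nr5a2 has 6 annotated start sites and these, too, lay in different peaks in MEFs and in ESCs. The site at chr1:136949173 lay in a MEF peak with a score of 34, and a day 10 peak ended 52 bp from it. The site at 136953630 and that of the retained-intron transcript at 136940583 lay in ESC peaks only, with scores of 37 and 28. The outermost sites at 136960448 and 136960380 had no peak, and the nearest ESC peak lay 6590 and 6522 bp away. Prdm14 has a single start site, chr1:13127163, which no list covered. Its nearest peak was an ESC peak of 1056 bp that began 506 bp upstream, with a score of 16, among the weakest of the list (rank in the top 95.2%). At Tbx3 the internal start site at chr5:119680249, that of a processed transcript, lay in an ESC peak, and a day 5 peak lay 306 bp away.

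The 200 bp before a start site of MEFs and ESCs, and before start sites of ESCs alone, are shown 5′ to 3′ along the gene, on GRCm38 and outside annotated exons. Capitals mark the KLF word CCACACCC or CCACGCCC on either strand, which stood in 7.36% of 54405 such stretches of protein-coding genes.
Esrrb, MEFs and ESCs, chr12:86421444-86421643, plus strand: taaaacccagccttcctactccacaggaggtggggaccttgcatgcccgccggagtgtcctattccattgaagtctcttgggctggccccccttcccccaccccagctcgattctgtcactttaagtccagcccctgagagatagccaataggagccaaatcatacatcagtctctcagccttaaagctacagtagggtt
Esrrb, ESCs only, chr12:86469917-86470116, plus strand: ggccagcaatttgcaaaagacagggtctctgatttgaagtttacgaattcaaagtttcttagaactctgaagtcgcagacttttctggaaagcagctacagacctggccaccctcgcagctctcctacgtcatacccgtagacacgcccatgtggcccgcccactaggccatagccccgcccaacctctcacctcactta
Nr5a2, ESCs only, chr1:136953631-136953830, minus strand: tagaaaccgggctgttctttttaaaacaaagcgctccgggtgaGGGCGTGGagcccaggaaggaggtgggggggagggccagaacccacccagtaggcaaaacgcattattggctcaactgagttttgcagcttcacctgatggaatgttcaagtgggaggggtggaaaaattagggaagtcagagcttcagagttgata
The Nr5a2 stretch held a KLF match, and neither Esrrb stretch held a match to any of the motifs searched. The stretch before the ESC-only Esrrb start site at 86504409, also outside exons, held no match either and is not shown.

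The next comparison asked in what order the ESC sites opened. Merging peaks that lay no more than 400 bp apart, whichever list they came from, gave 79 regions at the loci, out of 101701 in the genome. A region was ESC-specific when it had an ESC and no MEF peak, MEF-specific in the opposite case, common with both and transient with a peak on a day only. ESC-specific regions made up 54 of 79 (68.4%), beside 28.4% of all regions of the genome. MEF-specific regions were 11 (13.9%, genome 36.4%), common regions 10 (12.7%, genome 19.1%) and transient regions 4 (5.06%, genome 16.1%). Esrrb had 12 ESC-specific regions, Nr5a2 9, Tfcp2l1, Prdm14 and Klf5 8 each, Klf2 6 and Tbx3 3.

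**Figure D3:**
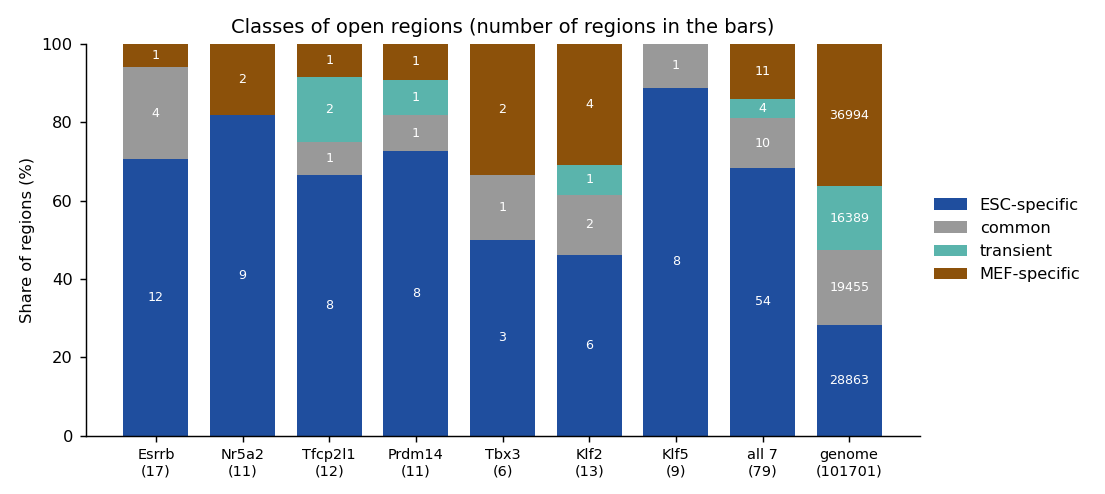
Share of regions of each class (vertical axis, percent) at the 7 loci, over all 7 and in the genome, with the number of regions in the bars and in brackets. ESC-specific regions are 68.4% at the loci and 28.4% in the genome, and lowest at Klf2 (46.2%).

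Of the 54 ESC-specific regions, 7 (13.0%, 95% Wilson interval 6.42% to 24.4%) had a peak at day 5 or day 10, beside 15.1% of the 28863 in the genome. The interval covers counting error only. The share was thus near that of the genome, and 47 regions were in the lists of neither day. Of the 7, 3 were listed on both days, 1 at day 5 only and 3 at day 10 only. They were spread unevenly, with 4 of 8 at Tfcp2l1, 2 of 6 at Klf2, 1 of 3 at Tbx3 and 0 at Esrrb (of 12), Nr5a2 (of 9), Prdm14 (of 8) and Klf5 (of 8). With these counts 0 of 12 allows a share of up to 24.2% and 0 of 8 up to 32.4% (upper Wilson bounds). In the regions with a day peak at Klf2 the ESC peaks ranked 43460 and 44183 of 48486, and in that at Tbx3 37400. None of these ESC peaks was in the ESC list cut to its 35226 highest-scoring peaks.

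Tfcp2l1 had more ESC sites listed on the days than any other member. The region at chr1:118625431-118626679, centred 1.89 kb before the start site, had scores of 37 at day 5, 56 at day 10 and 96 in ESCs. In the gene, chr1:118647849-118648612, 20.3 kb inside, had 20, 66 and 93. Beyond the gene, 118689724-118690252, 62.0 kb from the start site, had 73, 37 and 37. The region at 118642356-118643184, 14.8 kb into the gene, was listed at day 10 (score 29) and in ESCs (score 209), and its ESC peak ranked 408 of 48486, in the top 0.841%. That was the highest score of any ESC-specific region of the 7 loci. Tfcp2l1 also held transient regions at 118650355-118650901, with peaks on both days (scores 33 and 60), and at 118578257-118578446 at day 5 (score 22), the latter inside Clasp1.

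At Klf2 the ESC-specific regions listed on a day had their day peak at day 10. The ESC-specific regions at chr8:72270851-72272530, 47.3 kb upstream, and at 72353811-72354515, 35.1 kb downstream within Eps15l1, had day 10 peaks (scores 27 and 20) and ESC peaks (score 18 for both). Both ESC peaks were among the weakest of their list (ranks in the top 89.6% and 91.1%). Neither reached a −log10 q-value of 2. The transient region at 72310933-72311387, 7.87 kb upstream, had a day 10 score of 60. The MEF-specific regions at 72295451-72296050 and 72302977-72303836 were listed in MEFs (39 and 67), were missing at day 5 and were listed at day 10 (14 and 21). The day 10 peaks of the ESC-specific regions ranked in the top 74.5% and 86.6% of their list. Those of the MEF-specific regions ranked in the top 97.4% and 84.8%, so these day 10 peaks were weak as well. Klf2 thus combined day 10 peaks shared with ESCs and day 10 peaks shared with MEFs. Its strongest ESC-specific region, 72333666-72335085, 15.3 kb from the start site, had a score of 119 and no peak on either day.

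Tbx3 had 1 early region, chr5:119679962-119682149, with a day 5 peak of score 22, none at day 10 and an ESC peak of score 24. Its strongest, 119709745-119710357, 39.4 kb from the start site, had a score of 79 and was in ESCs only. Prdm14 had a transient region at chr1:13134437-13134556 with a day 5 score of 15, 7.33 kb upstream. That peak was among the weakest of the day 5 list (rank in the top 98.0%). With the q-value limit or with lists of equal length Prdm14 had 0 peaks at day 5.

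The strongest ESC-specific regions of Esrrb, Nr5a2, Prdm14 and Klf5 had no peak on either day. The strongest of Klf5, chr14:99339612-99340935, 41.6 kb from the start site, had a score of 124 (top 5.81% of ESC peaks). That of Prdm14, chr1:13084570-13085524, lay 42.1 kb from the start site on the side of the gene's end and had 110 (top 8.08%). At Esrrb, chr12:86556203-86557281, 196 kb from the outermost start site, had 82 (top 16.0%). The highest at Nr5a2, chr1:136979694-136980938, 19.9 kb upstream, had 42 (top 45.2%), near the median ESC score of 39. Regions missing on both days were therefore not limited to weak ESC peaks.

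**Figure D4:**
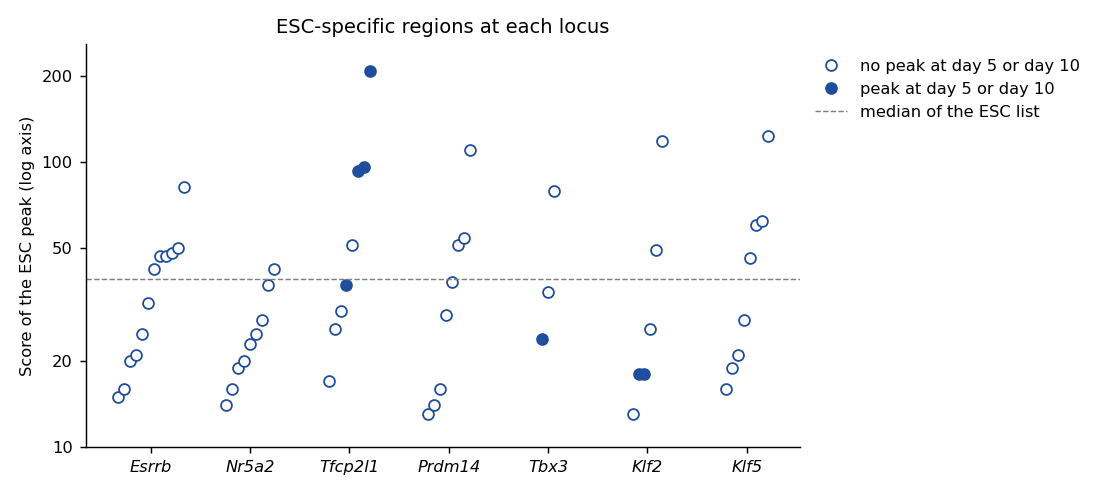
Score of the ESC peak (log axis, 10 times −log10 q-value) in each ESC-specific region, 1 point per region. Filled points had a peak at day 5 or day 10. Tfcp2l1 holds the 209 at the top, and the strong regions of Klf5, Prdm14 and Klf2 are open symbols.

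Scores of the 54 ESC-specific regions ranged from 13 to 209 with a median of 29.5, beside 34 in the genome. The 7 regions with a peak on a day had a median of 37 and the 47 without one a median of 29, beside 44 and 33 in the genome. Median width was 672 bp (genome 547 bp), GC content 48.7% (46.7%) and repeat-masked sequence 15.1% (15.5%). A Prdm14 interval, chr1:13132071-13132093, was only 23 bp wide.

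By position, 5 of the 54 ESC-specific regions lay over a start site of the member, 13 in an intron, 13 upstream and 23 downstream. A start site of any gene lay under 5 (9.26%, genome 5.36%), and none was that of another gene. Esrrb had 10 of its 12 inside the gene, whereas Klf5 and Prdm14 had all 8 outside the gene body. Of the Prdm14 regions, 3 lay in Gm29283 and 1 in Ncoa2, so that assignment to the member rests on distance alone there.

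The last comparison concerned motif words in the central 200 bp of the ESC peak. The middle was that of the listed interval, which may differ from that of the peak scored. A match to TCAAGGTCA, the word of ESRRB and NR5A2, stood in 4 of 54 regions (7.41%, Wilson interval 2.92% to 17.6%), beside 1.61% of all ESC-specific regions of the genome. In the central 400 bp the count was again 4 and the genome share 3.04%, inside the same interval. The matches were in Esrrb itself (2 regions, chr12:86501655-86502328 and 86504147-86504817), Tfcp2l1 and Klf2 (1 each). The 2 Esrrb intervals had the same score (47) and the same fold enrichment over background (2.18). At the 7 loci 1 ESC peak name stood for more than 1 interval. The 2 Esrrb intervals may thus be parts of the same peak, counted as 2. Of the 4 regions with a match, 2 had it in repeat-masked bases, beside 47.6% in the genome. The octamer was found in 2 regions (3.70%, genome 3.18%), at Esrrb and Klf5. SOX words were in 4 (7.41%, genome 14.6%), 1 each at Esrrb, Nr5a2, Tfcp2l1 and Prdm14. T-box words were in 2 (3.70%, genome 1.25%), STAT (TTCCNGGAA) in 1 (1.85%, genome 0.890%) and AP-1 (TGACTCA or TGAGTCA) in 3 (5.56%, genome 3.90%).

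No region held a KLF word, a PRDM14 word (GGTCTCTAA) or the paired word of TFCP2L1 in the central 200 bp, beside 4.40%, 0.139% and 0.170% of the genome. The upper Wilson bound for 0 of 54 was 6.64%. Whole peaks were wider at the loci than in the genome. Over them KLF words stood in 12 regions (22.2%, Wilson interval 13.2% to 34.9%, genome 11.8%). ESRRB/NR5A2 words stood in 7 (13.0%, Wilson interval 6.42% to 24.4%, genome 4.51%). The T-box and KLF words share the letters CACACC, so a stretch can come close to both. A match is a run of letters and not a site at which a factor was shown to bind.

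**Figure D5:**
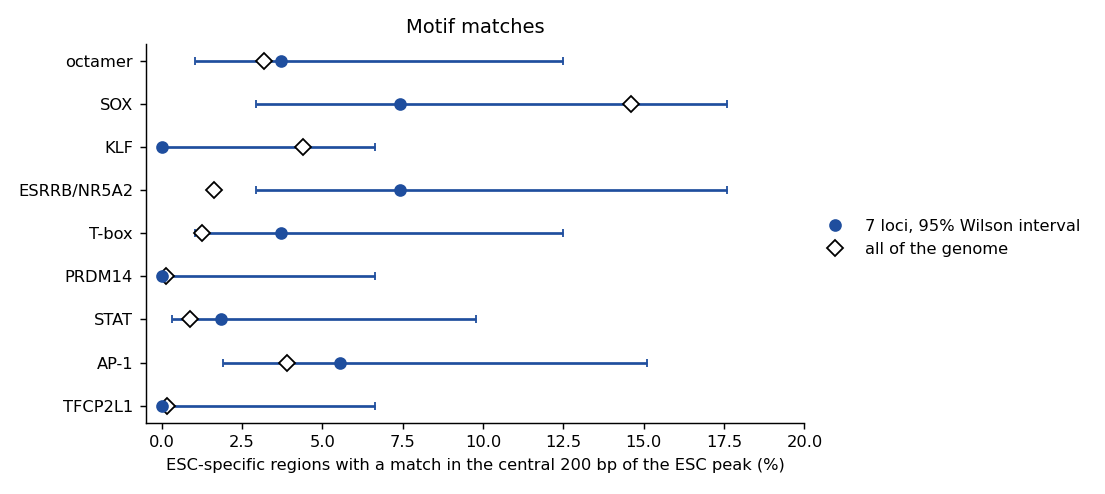
Share of ESC-specific regions (horizontal axis, percent) with a motif match in the central 200 bp, at the 7 loci (circles with 95% Wilson interval, n = 54) and in the genome (diamonds, n = 28863). In this window the genome value lies outside the interval for ESRRB/NR5A2 and inside it for the others. For ESRRB/NR5A2 it lies inside in 400 bp (3.04%, interval 2.92% to 17.6%) and outside over whole peaks (4.51%, interval 6.42% to 24.4%). The interval takes the 54 regions as independent although they lie at 7 loci, and it is not a test. Of the ESRRB/NR5A2 regions, 2 at Esrrb had the same score and fold enrichment and may be parts of 1 peak.

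Other genes of the pluripotency network were counted as a list of 11 (Nanog, Zfp42, Dppa3, Gbx2, Sall4, Stat3, Tcl1, Fgf4, Fbxo15, Dppa5a and Tdgf1). This list includes the 7 marker genes of pluripotent cells counted above. The 11 genes held 35, 29, 41 and 71 peaks, counting once those shared by neighbouring loci, with more in ESCs than in MEFs at 9 and fewer at 1. Of their 49 ESC-specific regions, 7 had a peak on a day (14.3%, Wilson interval 7.10% to 26.7%). A start-site peak was listed for 4 of 11 in MEFs and 7 of 11 in ESCs, beside 6 of 7 members in both. Over all protein-coding genes these shares were 60.0% and 55.8%, and 35.6% had more peaks in ESCs than in MEFs.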

How the data were processed

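ATAC-seq peak lists of MEFs, OSKM day 5, OSKM day 10 and ESCs were used, with groups taken from the sample titles. Per the labels, the authors mapped reads to mm10 with Bowtie2 (2.2.0 in the submitters' processing notes), kept uniquely mapped reads of good quality and removed mitochondrial reads. The ATAC-seq peak caller was not given in the sources used here. The authors deposited 1 headerless list per group, holding a score, a fold enrichment (ratio over background) and −log10 p and q-values, the smallest −log10 q-value being 1.01. Peak names were those of replicate 1, and list names call them intersections. Replicates could therefore not be compared, the depth in reads is unknown, and columns of other series numbered 0. Whether the intervals were cut to the overlap with replicate 2 is not stated. Widths and middles of intervals may therefore not be those of the peaks scored.

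Peaks overlapping a locus by at least 1 bp were counted with GENCODE mouse release 21 annotation (GRCm38), on all 21 chromosomes of the lists. Regions were peaks merged within 400 bp. Motifs were searched on both strands of 200 bp windows. Counting scripts (Python 3.11.15, scipy 1.17.1, matplotlib 3.10.9) were tested on simulated data. No significance test was run, and 95% Wilson intervals cover counting error only.

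The 7 members were named in full and other genes by list. Regions named were the highest-scoring ESC-specific one per member, those over its start sites and those with a peak on a day and none in MEFs, while other regions in the text were named after their values were seen. The members and lists were chosen with earlier results of these data known. Pou5f1, Sox2, Klf4 and Myc were left out of the lists, since the retroviruses carry their coding sequence. Alternatives changed the window, the q-value limit, list length, start-site and merging rules and the motif window.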

Additional observations from a re-analysis of the deposited data

How the results depend on the processing

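Each group had 1 combined list and its depth in reads is unknown, so leaving out each replicate in turn could not be run, and a site missing from a list may lie below its detection limit. No paired analysis was possible because the lists combine both replicates and no result comes from a test. Of 78 alternatives, 64 gave a count within 1.5 times the reported one and 14 did not, and the total was highest in ESCs in all 7 settings. With 100 kb on each side the loci held 38 MEF, 19 day 5 and 26 day 10 peaks. With lists of equal length they held 10, 10, 17 and 39 peaks (MEFs, day 5, day 10, ESCs), so that MEFs equalled day 5 and lay below day 10, with 34 ESC-specific regions, by construction from fewer peaks. Members with more peaks in ESCs than in each other list numbered 6 of 7 with 20 kb, with 100 kb, with the q-value limit and with lists of equal length (genome 24.3% for the last and 28.7% for the q-value limit). The share over all genes was not computed with 20 kb or 100 kb, so those counts stand without a background. The share of ESC-specific regions with a peak on a day ran from 11.3% to 14.7% at the loci and from 14.5% to 21.5% in the genome. In each of these settings the loci lay below the genome. The gap was widest with lists of equal length, with 14.7% at the loci and 21.5% in the genome. There the count at the loci (5 of 34) no longer included the Klf2 and Tbx3 regions counted in the main setting. With the q-value limit (5 of 40) those of Klf2 were lost. Wider motif windows hold more sequence: 400 bp gave 11 regions with a SOX match, 4 with KLF, 4 with ESRRB/NR5A2 and 1 with TFCP2L1, and whole peaks gave 5 with the octamer, 20 with SOX, 12 with KLF, 7 with ESRRB/NR5A2 and 1 with TFCP2L1. Counting each peak name once, an alternative chosen after seeing the data, gave 63 ESC peaks.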

Other observations

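Genes of the formative or primed state, which follows naive pluripotency (Otx2, Fgf5, Pou3f1, Dnmt3b, Zic2, Lef1, Foxa2 and Cer1), held 34, 24, 26 and 37 peaks in the order MEFs, day 5, day 10, ESCs. Of these 8 genes, 4 had more peaks in ESCs than in MEFs, 2 had fewer and 2 had equal numbers, beside 35.6% with more over all protein-coding genes. Otx2, a homeobox gene of the formative state, had 2, 1, 1 and 5 peaks, whereas Fgf5, a marker of the primed epiblast, had 5, 2, 1 and 1. Of the 19 ESC-specific regions of the list, 3 had a peak on a day (15.8%, Wilson interval 5.52% to 37.6%).

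The 6 related genes outside the naive set (Esrra, Esrrg, Tfcp2, Ubp1, Tbx2 and Nr5a1) held 44, 27, 25 and 35 peaks in the same order. Esrrg, a close relative of Esrrb, had 15 peaks in MEFs and 4 in ESCs, while Esrrb had 5 and 16. Tfcp2, a relative of Tfcp2l1, had 7, 7, 7 and 8 peaks. Start sites were covered in all 4 lists at 5 of these 6 genes, beside 46.8% of all protein-coding genes. Nr5a1 was the exception, with no start-site peak in any list.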
